A study of Mus musculus with 6 samples.

Results

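The cytosolic heat-shock proteins and their DnaJ co-chaperones were followed in quadriceps muscle of wild-type mice and of mice that express the nuclear receptor ERRγ as a transgene in muscle. Members were all Affymetrix probe sets whose annotation names exactly 1 gene with a symbol beginning Hspa, Hspb, Hsph or Dnaj, except Hspa9, the mitochondrial HSP70. This gave 159 probe sets of 67 genes, out of 45037 probe sets and 18193 genes. The symbols reach beyond the cytosol: a set list assigned 9 of the genes to the endoplasmic reticulum and 4 to mitochondria. Every gene outside that list, Dnajc28 among them, was counted as cytosol or other, so the 9 and the 4 may be incomplete. They also take in Hspb11, a component of intraflagellar transport. Hspbp1 and Hspbap1, named as HSP70- and HSPB1-binding proteins, had 1 tested probe set each and did not pass. A symbol rule of this kind leaves out the HSP90 genes, Cryab and the BAG exchange factors, which are described further on as partners.

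The 3 wild-type and 3 transgenic arrays each came from 1 male C57/BL6 mouse aged 8 weeks, called a biological replicate in the titles, and are written WT1 to WT3 and TG1 to TG3. The transgenic animals carry ERRγ under the skeletal actin promoter, described as α-skeletal actin in the study's design and as hSkeletal Actin -ERRg in the genotype field. That promoter is active in muscle fibres and not in the vessels, fat or connective tissue of the same sample. How many transgenic lines were used is not given in the sources used here. Values are MAS5 signals, an array brightness scaled to the same trimmed mean on every array, so that a signal compares 1 probe set between arrays and never 1 gene with another.

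Heat-shock proteins of the HSP70 family bind exposed hydrophobic stretches of unfolded proteins and release them in a cycle of ATP hydrolysis. J-domain (DnaJ) proteins bring the clients and trigger the hydrolysis, and HSP110 proteins such as Hsph1, BAG proteins and Hspbp1 act as nucleotide exchange factors that open the cycle again. Small heat-shock proteins use no ATP and hold unfolding proteins in a soluble state. Muscle fibres contain a large set of them, several of which sit on the sarcomere, and Hspb8 works with Bag3 and HSP70 to send damaged Z-disc proteins to autophagy.

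The summed fast-fibre markers overlapped between the genotypes. Summed signals of 9 fast-fibre markers lay between 150787 and 189249 in wild-type and between 165265 and 185216 in transgenic muscle, with 1 marker (Myh1) higher. The brightest Esrrg probe set averaged 13644 in transgenic against 52.2 in wild-type muscle. The other tested Esrrg probe sets averaged 145.3 and 53.3 in transgenic against 104.9 and 38.5 in wild-type muscle, and neither passed. Array medians ran from 52.1 to 56.3 in wild-type and from 57.1 to 61.9 in transgenic muscle, and the 3′ to 5′ ratio of Gapdh from 0.790 to 0.830. The same ratio of Actb did not overlap, at 0.9405 to 1.139 in wild-type and 1.168 to 1.231 in transgenic muscle. What part this has in the values below was not tested. Markers of other cells also differed between genotypes. Of 7 endothelial markers 5 were higher, with summed signals of 1991 to 2230 in wild-type and 3527 to 3913 in transgenic muscle. Of 8 slow-fibre markers 3 were higher, with sums of 1205 to 1311 in wild-type muscle and of 2092, 2629 and 8701 on TG1, TG2 and TG3, so that TG3 stood apart. Adipocyte markers, 4 of 6 with a probe set, summed to 11532 on WT3 and to 1884 to 5500 on the other arrays. Of 5 macrophage and leukocyte markers 1 was lower, with sums of 2446 to 2693 against 1681 to 2202. No smooth muscle or fibroblast marker passed, but their sums were apart, at 1467 to 2052 against 2089 to 2621 for 3 smooth muscle markers and 20880.3 to 25216 against 19686 to 20660 for 4 fibroblast markers. Sums of 3 B cell markers were apart too, at 56 to 61.8 against 82.5 to 143.4. Those of 2 erythroid markers lay at 45 to 72.6 against 93.4 to 122.1. These markers were dim, with no signal above 54.4 and 103.5 on any array, and none was called. What part all these cells have in the values below was not tested.

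Genotypes were compared with limma on log2(signal + 16), with Benjamini-Hochberg adjustment over all 26995 probe sets whose mean signal was above 37.8. Of the 159 member probe sets 129 were tested, and 7 genes (Dnajb3, Dnajb7, Dnajb13, Dnajc5b, Dnajc5g, Dnajc6 and Hspb9) had no probe set above the limit and no signal above 53.0 on any array. Of the tested member probe sets 9 were higher and 9 lower in transgenic muscle at a limma adjusted p under 0.05. That is 14.0% against 11.5% of all tested probe sets, or 6.98% in each direction against 6.38% higher and 5.16% lower. A share this near the background is no result about the family as a whole. The genotypes did not overlap at 44 member probe sets (34.1%, against 31.0% of all), 22 in each direction, against 17.8% higher and 13.2% lower of all. By the brightest probe set of each gene 5 of 60 rose (Hspb7, Dnaja3, Dnaja4, Dnajc11 and Dnajc28) and 6 fell (Hspb3, Hspb8, Hsph1, Dnajb2, Dnajc2 and Dnajc3), 18.3% against 13.4% of all genes. The median log2 difference was -0.01 over the tested members and 0.05 over all tested probe sets.

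The direction of these counts depends on the scaling. Scaling each array to a common median moved the median of all tested probe sets from 0.05 to -0.09 and gave 5 member probe sets higher and 16 lower, while quantile normalization gave 10 higher and 11 lower. The shares of all probe sets under the alternative settings are not given here, so these counts are no result about the members. None of the 18 calls changed sign under any of 16 alternative settings, and 8 of them stayed past the threshold under every one. Those 8 belong to Hspb7 (3 probe sets), Hspb8 (2), Hsph1 (2) and Dnajc28 (1). Without WT1 there were 5 probe sets higher and 5 lower, and without WT2, 7 and 6. The counts were 6 and 6 without TG1, 7 and 7 without TG2, and 10 and 12 without WT3. In genes, leaving out WT1, WT2, TG1 or TG2 gave 2 and 3, 3 and 4, 3 and 4, and 3 and 5. The common median ended the calls of Dnaja3, Dnaja4, Dnajc11 and Dnajc27, and a variance model without the intensity trend ended 9 of the 18.

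The small heat-shock proteins split by gene. Hspb7 rose and Hspb8 and Hspb3 fell, while Hspb1, Hspb2, Hspb6 and Hspb11 did not pass. By the brightest probe set of each gene, that is 1 of 7 tested genes higher and 2 lower, against 7.65% and 5.75% of all genes. The 7 take in Hspb11 by its symbol only. In a muscle homogenate, fewer cells of a type and less RNA per cell cannot be told apart.

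**Figure D1:**
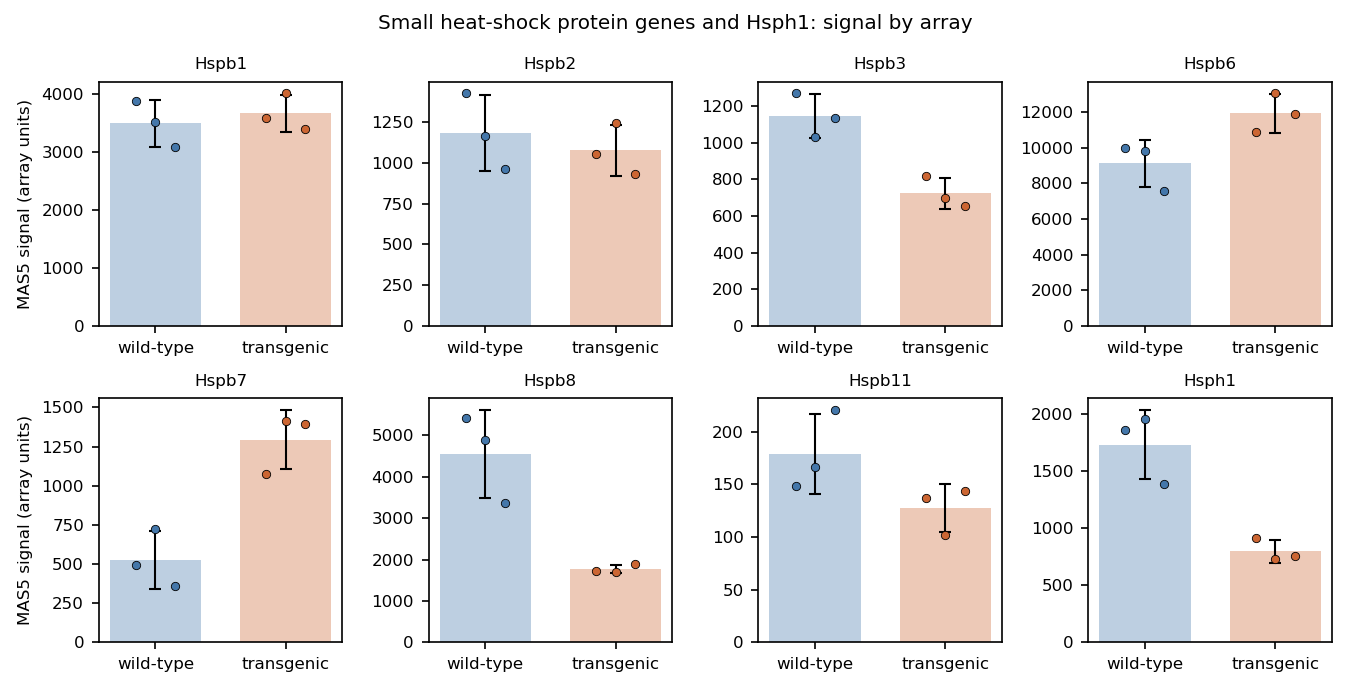
MAS5 signal (linear axis from 0) of the brightest probe set of the 7 tested small heat-shock protein genes and of Hsph1; points are single arrays, bars the mean of 3 arrays and error bars 1 SD. Hspb7 lay higher on all transgenic arrays (1075 to 1415) than on any wild-type array, Hspb8, Hspb3 and Hsph1 lay lower, and Hspb1 and Hspb2 overlapped. Hspb6 lay higher and Hspb11, grouped here by its symbol, lower without overlap, and neither passed.

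Hspb7, a small heat-shock protein of heart and skeletal muscle, gave signals of 493, 723 and 360.3 on WT1, WT2 and WT3 and of 1075, 1415 and 1396 on TG1, TG2 and TG3. Every transgenic array was above every wild-type array, and WT3 was the lowest. The means were 525 ± 183 and 1295 ± 191 (SD, n = 3 each), a ratio of 2.47 and a log2 difference of 1.32 (SE 0.21, limma adjusted p = 0.00297). Its other probe sets rose by 0.98 (443, 490 and 347 to 751, 905 and 903, limma adjusted p = 0.00180) and by 1.06 (174, 225 and 149 to 307, 465 and 423, limma adjusted p = 0.00507). All 3 probe sets of the gene thus moved the same way, without overlap. The log2 difference at the brightest was 1.09 without WT3 and 1.26 without TG3, the array with the most slow-fibre signal.

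Hspb8, the small heat-shock protein that pairs with Bag3, was the member with the largest fall among tested genes by the brightest probe set. It gave 5421, 4881 and 3361 in the wild type and 1724, 1697 and 1889 in the transgenic arrays. The transgenic arrays lay close together, at 1770.0 ± 104, and the wild-type arrays were spread, at 4555 ± 1068 (SD, n = 3 each), with WT3 the lowest but still above all transgenic arrays. The log2 difference was -1.33 (SE 0.16, limma adjusted p = 0.000527), a ratio of 0.389. The second probe set fell by 1.18 (SE 0.14, limma adjusted p = 0.000606), from 2442, 2089 and 1630.4 to 939, 900 and 815. The third, whose name ends in x_at, the array maker's mark for probes that may match other transcripts, was dim and overlapped, at 353, 250.4 and 254 against 438, 206 and 262, with a log2 difference of 0.02 (SE 0.24, limma adjusted p = 0.963). Without WT3 the fall at the brightest probe set was -1.53, and without TG3 it was -1.38.

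Hspb3, a muscle small heat-shock protein that assembles with Hspb2, has 1 probe set on the array. It gave 1272, 1035 and 1137 in the wild type and 821, 698 and 653 in the transgenic arrays, with no overlap. The log2 difference was -0.66 (SE 0.13, limma adjusted p = 0.00726), and it did not pass without the intensity trend in the variance model (limma adjusted p = 0.0514). Hspb2, its partner, gave 1427, 1162 and 962 against 1054, 1241 and 932, and the genotypes overlapped, with a log2 difference of -0.13 (SE 0.16, limma adjusted p = 0.658).

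The other small heat-shock proteins did not pass. Hspb6, a target of cyclic nucleotide-dependent kinases in muscle, gave 9996, 9800 and 7575 in the wild type and 10882, 13075 and 11892 in the transgenic arrays. All transgenic arrays were above all wild-type arrays, yet the log2 difference of 0.40 (SE 0.12) had a limma adjusted p of 0.0626, and it was 0.27 without WT3. Hspb1, a small heat-shock protein that protects actin filaments, gave 3874, 3518 and 3073 against 3588, 4008 and 3383, which overlapped. Its probe sets differed in sign, at 0.07 (SE 0.11) and -0.25 (SE 0.11), with limma adjusted p of 0.738 and 0.196. Hspb11, grouped here by its symbol, gave 148, 167 and 221 against 137, 102 and 144. All transgenic arrays were lower, but the difference did not pass (log2 difference -0.43, SE 0.19, limma adjusted p = 0.183).

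Of the 3 HSP110 genes, Hsph1 fell and the other two, Hspa4 and Hspa4l, did not pass. Both calls among the 10 tested probe sets are of Hsph1, against 5.16% lower of all. Hsph1, the HSP110 protein of the cytosol that exchanges nucleotide on HSP70 and is induced by heat, gave 1855, 1951 and 1382 in the wild type and 909.9, 727 and 751 in the transgenic arrays. Again WT3 was the lowest of its genotype, and no transgenic array reached it. The means were 1729 ± 305 and 796 ± 99.2 (SD, n = 3 each), and the log2 difference was -1.09 (SE 0.15, limma adjusted p = 0.00103). The second probe set gave 1316, 1393 and 973 against 653, 477 and 599 and fell by 1.06 (SE 0.16, limma adjusted p = 0.00195). Without WT3 the fall at the brightest was -1.25, and without TG3 it was -1.06. Hspa4 overlapped between genotypes, at 1212, 1191 and 1217 against 945, 991 and 1224. Its log2 difference was -0.20 (SE 0.12, limma adjusted p = 0.316), and its 3 tested probe sets ran from -0.51 to -0.03 without a call. Hspa4l was at 148, 142 and 126 against 126, 220.0 and 142, with a log2 difference of 0.17 (SE 0.20, limma adjusted p = 0.636).

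The HSP70 genes themselves gave no call. None of their 22 tested probe sets passed with limma, where 11.5% of all did. At an unadjusted limma p under 0.05 there were 1 higher and 3 lower, without a share of all probe sets beside them. Differences at the brightest probe set of the 10 genes ran from -0.73 (Hspa1l) to 0.57 (Hspa2). Hspa8, the constitutive HSP70 of the cytosol, was bright on all arrays, at 11149, 10546 and 9377 in the wild type and 9025, 8220 and 9545 in the transgenic arrays, where only TG3 reached into the wild-type range. Its log2 difference of -0.21 (SE 0.10) did not pass as deposited (limma adjusted p = 0.211). It passed, lower, with the arrays scaled to a common median (-0.37, adjusted p = 0.0478) and after quantile normalization (-0.35, adjusted p = 0.0191). The 4 tested Hspa8 probe sets ran from -0.57 to 0.15, and none was called. Hspa5, the HSP70 of the endoplasmic reticulum also called BiP, gave 2778, 2276 and 2669 against 1921, 2448 and 2357, and the genotypes overlapped (log2 difference -0.20, SE 0.12, limma adjusted p = 0.338).

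The heat-inducible HSP70 genes Hspa1a and Hspa1b were at low signal in both genotypes. Hspa1a gave 98.7, 89.2 and 109.7 in the wild type and 52.7, 109.8 and 114 in the transgenic arrays, which overlapped (log2 difference -0.15, SE 0.25, limma adjusted p = 0.770). Hspa1b gave 88.5, 104 and 112 against 143, 133 and 124 at its brightest probe set, without overlap, and the difference of 0.35 (SE 0.17) did not pass (limma adjusted p = 0.215). The other Hspa1b probe sets lay at 0.13 and -0.15. Hspa1a and Hspa1b are neighbours on the chromosome with nearly the same sequence, so that signal can be shared between their probe sets. Hspa1l, the next gene beyond Hspa1a, expressed mainly in testis, gave 206, 196 and 142 against 66.2, 109.6 and 143 (log2 difference -0.73, SE 0.24, limma adjusted p = 0.0835), and it was called without TG3 (-0.94, adjusted p = 0.0450), with a common median (-0.86, adjusted p = 0.0478) and with array weights (-0.83, adjusted p = 0.0417). Hspa2, known from male germ cells, gave 98.3, 81.1 and 93.6 against 139.9, 121 and 168, without overlap (0.57, SE 0.18, limma adjusted p = 0.0684), and passed with array weights (0.60, adjusted p = 0.0447). Hspa12b, an HSP70-like gene of endothelial cells, gave 52.6, 112 and 89.7 against 48.7, 42.4 and 138, a log2 difference of -0.22 (SE 0.37, limma adjusted p = 0.753), beside the higher endothelial markers given above.

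The stretches before the transcription starts of the 5 genes with the largest differences among those called at the brightest probe set are shown because heat-shock factors and ERRγ both act through short DNA elements. They are from RefSeq on GRCm38.p6, the 250 bases before the start, 5′ to 3′. Capitals mark a pair of heat-shock units facing each other, GAANNTTC or TTCNNGAA, each its own reverse complement, or the ERR half-site AAGGTCA on either strand. Hspa1a is added as the textbook heat-inducible gene.
Hspb7, chr4:141420529-141420778, strand +: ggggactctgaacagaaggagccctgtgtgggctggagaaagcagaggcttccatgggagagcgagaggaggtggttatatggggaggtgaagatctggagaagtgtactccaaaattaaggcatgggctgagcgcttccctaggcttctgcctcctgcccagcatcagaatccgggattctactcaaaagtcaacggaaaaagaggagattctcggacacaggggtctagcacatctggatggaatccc
Hspb8, chr5:116422865-116423114, strand -: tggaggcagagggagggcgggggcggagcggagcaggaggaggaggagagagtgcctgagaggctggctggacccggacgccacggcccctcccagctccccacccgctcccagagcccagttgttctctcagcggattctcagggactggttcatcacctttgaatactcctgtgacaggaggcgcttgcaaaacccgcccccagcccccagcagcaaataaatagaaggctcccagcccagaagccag
Hspb3, chr13:113663677-113663926, strand -: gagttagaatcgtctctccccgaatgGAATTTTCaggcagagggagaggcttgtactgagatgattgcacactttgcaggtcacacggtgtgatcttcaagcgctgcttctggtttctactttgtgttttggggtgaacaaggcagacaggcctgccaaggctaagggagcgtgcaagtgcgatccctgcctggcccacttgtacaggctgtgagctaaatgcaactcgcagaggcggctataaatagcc
Hsph1, chr5:149636316-149636565, strand -: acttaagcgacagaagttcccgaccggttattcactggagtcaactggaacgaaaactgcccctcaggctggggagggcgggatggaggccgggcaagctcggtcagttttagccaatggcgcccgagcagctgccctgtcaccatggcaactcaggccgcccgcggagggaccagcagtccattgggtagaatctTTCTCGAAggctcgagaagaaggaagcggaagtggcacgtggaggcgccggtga
Dnajc28, chr16:91619000-91619249, strand -: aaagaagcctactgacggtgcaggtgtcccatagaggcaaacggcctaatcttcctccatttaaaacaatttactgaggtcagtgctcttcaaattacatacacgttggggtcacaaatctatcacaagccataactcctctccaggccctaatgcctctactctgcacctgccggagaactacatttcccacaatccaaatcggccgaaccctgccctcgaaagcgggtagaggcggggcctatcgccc
Hspa1a, chr17:34972157-34972406, strand -: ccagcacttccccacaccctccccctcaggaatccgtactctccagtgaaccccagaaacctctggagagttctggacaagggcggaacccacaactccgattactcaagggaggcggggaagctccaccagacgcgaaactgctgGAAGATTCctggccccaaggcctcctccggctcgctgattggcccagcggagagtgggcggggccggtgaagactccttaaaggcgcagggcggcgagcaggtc
In these windows Hsph1, Hspb3 and Hspa1a hold 1 heat-shock pair each, starting 54, 224 and 104 bases before the start, and Hspb7, Hspb8 and Dnajc28 hold none. Hsph1 has a second annotated start, from which the same pair is 33 bases away. The table has a window for 56 of the 67 member genes. A heat-shock pair was found for 12 of these (21.4%), against 14.5% of all 27025 genes in the table. The ERR half-site was found for 1 (Dnajb13), or 1.79%, against 4.70% of all genes. A match is a run of letters in the window and was not measured as a binding site here.

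The DnaJ proteins of type A, the general HSP70 partners, had 2 probe sets higher and 1 lower among 12 tested, against 6.38% and 5.16% of all. Dnaja4, a cytosolic type A protein, rose from 807, 970 and 847 to 1370.1, 1159 and 1374, with no overlap (log2 difference 0.56, SE 0.12, limma adjusted p = 0.0114). Its other probe sets lay at 0.46 and 0.22 and did not pass (limma adjusted p = 0.0579 and 0.357). Without WT1 the adjusted p of Dnaja4 was 0.0594, without TG1 it was 0.0574, and with a common median for each array it was 0.0758. Dnaja1, the main farnesylated partner of Hspa8, gave 902, 927.5 and 1094 against 828, 776 and 790.4. All transgenic arrays were lower, but the difference of -0.28 (SE 0.11) did not pass (limma adjusted p = 0.147), and it passed with the arrays scaled to a common median (-0.43, adjusted p = 0.0491). Dnaja2, its close relative, fell at 1 of 4 tested probe sets, from 2085, 1976 and 1781 to 1291, 1452 and 1549 (log2 difference -0.44, SE 0.11, limma adjusted p = 0.0263). The brightest Dnaja2 probe set did not overlap either and did not pass (-0.28, SE 0.09, adjusted p = 0.0747). It passed with a common median (-0.44, adjusted p = 0.0136) and after quantile normalization (-0.32, adjusted p = 0.0326), and the dimmest lay at 0.30. The called Dnaja2 probe set had adjusted p of 0.113 without WT1, 0.0937 without WT2, 0.110 without TG1 and 0.0592 without TG2.

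**Figure D2:**
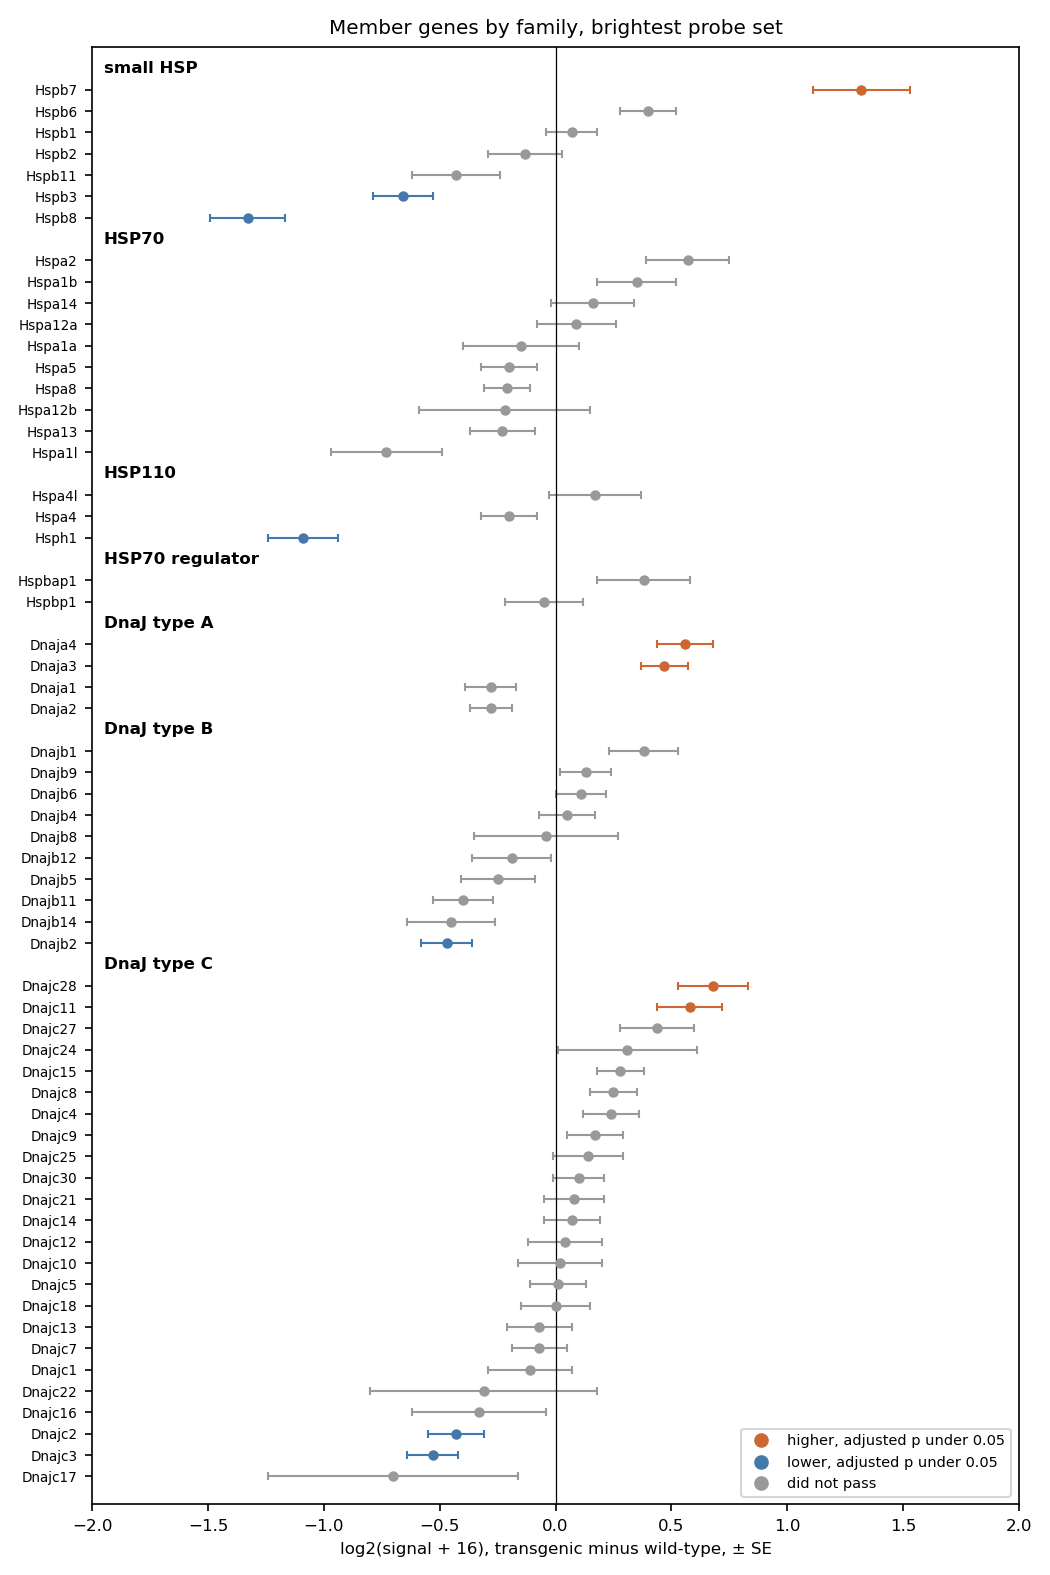
Log2 difference (transgenic minus wild-type, on log2(signal + 16)) with its SE for the brightest probe set of each of the 60 tested member genes, ordered within each family; orange and blue points passed at a limma adjusted p under 0.05. The extremes are Hspb7 at 1.32 and Hspb8 at -1.33, and the 49 genes that did not pass lie between -0.73 and 0.57.

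Type B DnaJ genes gave 1 call among 20 tested probe sets, 5.00% against 11.5% of all. At an unadjusted limma p under 0.05, 4 were higher and 3 lower, and the share of all probe sets at that limit is not given here. Dnajb2, a DnaJ protein with ubiquitin-interacting motifs, fell from 748, 749 and 644 to 511, 524 and 497, with the transgenic arrays below all wild-type arrays (log2 difference -0.47, SE 0.11, limma adjusted p = 0.0235). It did not pass without WT1 (adjusted p = 0.104), WT2 (0.0997), TG1 (0.0733) or TG3 (0.0650). Dnajb1, the heat-inducible partner of HSP70, gave 211, 192 and 224 against 329.5, 252 and 255, and the transgenic arrays were all higher. Its log2 differences of 0.38 (SE 0.15) and 0.47 (SE 0.19) did not pass (limma adjusted p = 0.132 and 0.140). Dnajb5 overlapped at its brightest probe set, at 1416, 1747 and 1469 against 1470.4, 981 and 1497. The log2 difference was -0.25 (SE 0.16, limma adjusted p = 0.376), while its other probe sets lay at 0.12 and 0.05.

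Among type C DnaJ genes, which share little beyond the J domain, 4 probe sets of 3 genes rose and 2 probe sets of 2 genes fell, out of 51 tested. That is 11.8% called, at the 11.5% of all tested probe sets. Dnajc28 rose from 237, 323 and 272 to 503, 453 and 403 at its brighter probe set (log2 difference 0.68, SE 0.15, limma adjusted p = 0.0137) and from 199.6, 252 and 248 to 383.5, 412 and 376 at the other (0.71, SE 0.14, limma adjusted p = 0.00725). The genotypes were apart at both. The brighter one had adjusted p of 0.0656 without WT1 and 0.0647 without TG1, while the dimmer one passed under every alternative run. Dnajc27, a Rab-like GTPase with a J domain, rose at 1 of 2 probe sets, from 486, 482 and 436 to 767, 639 and 650.3 (0.53, SE 0.12, limma adjusted p = 0.0169). The brighter Dnajc27 probe set, at 0.44 (SE 0.16), did not pass (adjusted p = 0.114) and passed with the replicate number as a block (adjusted p = 0.0451). For the called probe set the adjusted p was 0.0524 without WT1, 0.0505 without WT2 and 0.0763 without TG1, and it was 0.0731 with the arrays scaled to a common median.

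Dnajc2, which works with HSP70 on the ribosome, fell from 602, 575 and 568.5 to 431, 388 and 467 (log2 difference -0.43, SE 0.12, limma adjusted p = 0.0390). This was the least stable of the type C calls named here: only without TG3 did it pass among the fits that leave out 1 array. The adjusted p was 0.141 without WT1, 0.109 without WT2 and 0.0509 without WT3. It was 0.101 without TG1, 0.108 without TG2 and 0.0663 with the replicate number as a block. The dimmer tested Dnajc2 probe set overlapped and did not pass (-0.49, SE 0.18, limma adjusted p = 0.105). Dnajc5, the cysteine string protein of secretory vesicles, gave 585, 606 and 495.5 against 569, 542 and 582, and the genotypes overlapped at a log2 difference of 0.01 (SE 0.12, limma adjusted p = 0.971), which turned to -0.14 with a common median.

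The mitochondrial and endoplasmic reticulum members were also read by place in the cell. Of the 4 genes assigned to mitochondria 2 rose and 2 did not pass, where 7.65% of all genes were higher. At the brightest probe set all 4 were higher without overlap, as were 5 of their 7 tested probe sets, against 17.8% of all tested probe sets. Dnaja3, a DnaJ protein of the mitochondrial matrix, rose from 1441, 1355.5 and 1289 to 1784, 2085 and 1822 at its brightest probe set. The log2 difference was 0.47 (SE 0.10, limma adjusted p = 0.0153). Its other tested probe set overlapped and did not pass (0.16, SE 0.13, limma adjusted p = 0.496). Dnajc11, found with the cristae-organising complex of the mitochondrial membranes, rose from 317, 387 and 430.5 to 508, 631 and 571 (0.58, SE 0.14, limma adjusted p = 0.0265). A second Dnajc11 probe set lay at 0.64 (adjusted p = 0.0561), and a dim one at -0.69 (SE 0.52, adjusted p = 0.443). Neither call passed with the arrays scaled to a common median (adjusted p = 0.0894 for Dnaja3 and 0.116 for Dnajc11). Dnaja3 was at 0.0592 without WT2 and 0.0525 without TG2. Dnajc11 was at 0.112 without WT1, 0.0685 without WT2, 0.0916 without TG2 and 0.0704 without TG3. Dnajc15, of the mitochondrial import motor, gave 1860.4, 1621 and 1874 against 2175, 2061 and 2251 without a call (0.28, SE 0.10, limma adjusted p = 0.109), nor did Dnajc30 (0.10, SE 0.11, limma adjusted p = 0.640).

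Of the 9 genes assigned to the endoplasmic reticulum, 1 fell and 8 did not pass, which is 11.1% called against 13.4% of all genes. Of their 25 tested probe sets 22 were negative and 3 positive, with a median of -0.20 against 0.05 over all tested probe sets. Several of the 25 read the same gene, so they are not separate observations. By the brightest probe set 7 genes were negative and 2 positive. The share of negative differences over all probe sets is not given here. The genotypes did not overlap at 6 of the 25, all lower (24.0%, against 13.2% lower of all). Dnajc3, an inhibitor of the stress kinase PERK and a partner of Hspa5, fell from 633, 607 and 609.7 to 403, 435 and 429.5 at its brightest probe set (log2 difference -0.53, SE 0.11, limma adjusted p = 0.0109). The genotypes did not overlap. All 5 tested Dnajc3 probe sets were negative, from -0.53 to -0.18, and the other 4 did not pass. Without WT1 the adjusted p of the called one was 0.0566. Dnajb11, another partner of Hspa5, gave 378, 407 and 407 against 296, 337 and 262 (-0.40, SE 0.13, limma adjusted p = 0.0788) and passed, lower, with the arrays scaled to a common median (-0.55, adjusted p = 0.0269). Dnajb9, a DnaJ protein of the same compartment, overlapped (0.13, SE 0.11, limma adjusted p = 0.475).

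**Figure D3:**
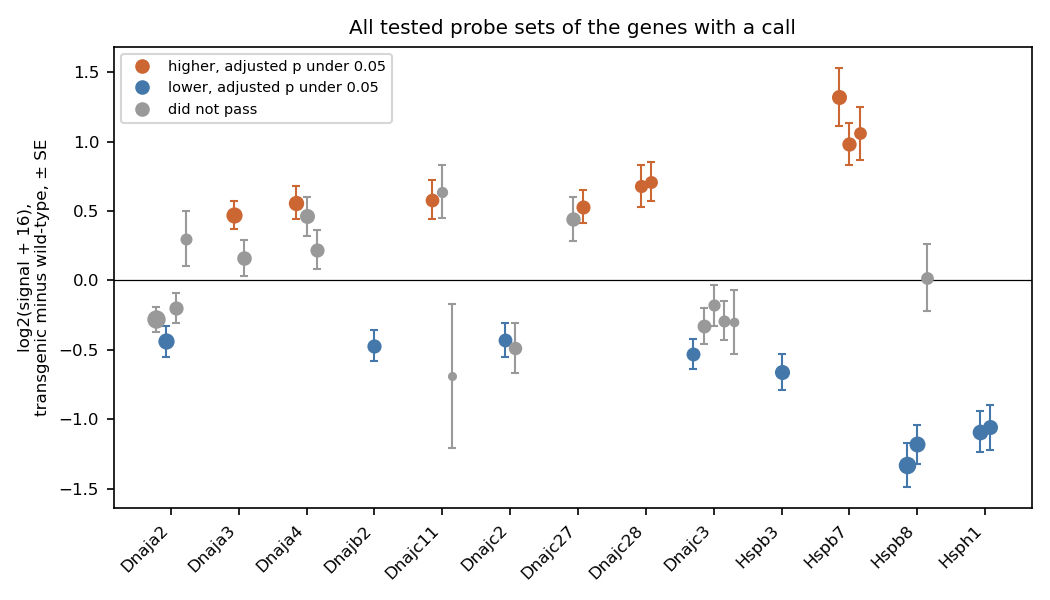
Log2 difference (transgenic minus wild-type, on log2(signal + 16)) with its SE for every tested probe set of the 13 member genes with a call, brightest first from left to right; larger points have a higher mean signal. All 3 probe sets of Hspb7 and both of Hsph1 and of Dnajc28 passed, while Hspb8 has 2 that passed and another, dim one at 0.02.

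Probe sets of 1 gene did not give opposite calls in any of the 35 member genes with more than 1 tested probe set. The filter on mean signal passed Dnajc1 at 37.8 (41.3 in wild-type, 34.2 in transgenic muscle) and Dnajc22 at 40.8. It left out Hspbap1 at 32.7 (22.8 and 42.5) and Dnajc17 at 29.8, each at 1 of several probe sets.

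The partners of these chaperones were counted over 7 lists with 76 genes, of which 70 were tested. By the brightest probe set 8 rose, 5 fell and 57 did not pass, against 7.65% higher and 5.75% lower among all genes, and the median log2 difference was -0.04 against 0.03. Leaving out WT1 or WT2 gave 3 higher and 1 lower, leaving out TG1 or TG2 gave 3 and 2, and with a common median for each array there were 3 higher and 11 lower. For these fits the shares of all genes are not given here. Bag3, the exchange factor that joins HSP70 to Hspb8, rose from 744, 1073 and 708 to 1666, 1598 and 1734. Bag3 thus lay higher on every transgenic array while Hspb8 lay lower on every one. The ratio of means was 1.98 (limma adjusted p = 0.00192, SE 0.15 on the log2 scale), and the log2 difference was 0.89 without WT3 and 0.97 without TG3. The remaining 8 tested exchange factors and ubiquitin co-chaperones did not pass at the brightest probe set, Stub1, the ubiquitin ligase of the Hspb8-Bag3 pathway, among them (0.22, SE 0.13, limma adjusted p = 0.306). St13, which binds HSP70 and holds it on its clients, was lower at a dimmer probe set, from 829, 883 and 856.5 to 671, 658 and 653 (-0.37, SE 0.10, limma adjusted p = 0.0421), and lay at -0.06 at its brightest.

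**Figure D4:**
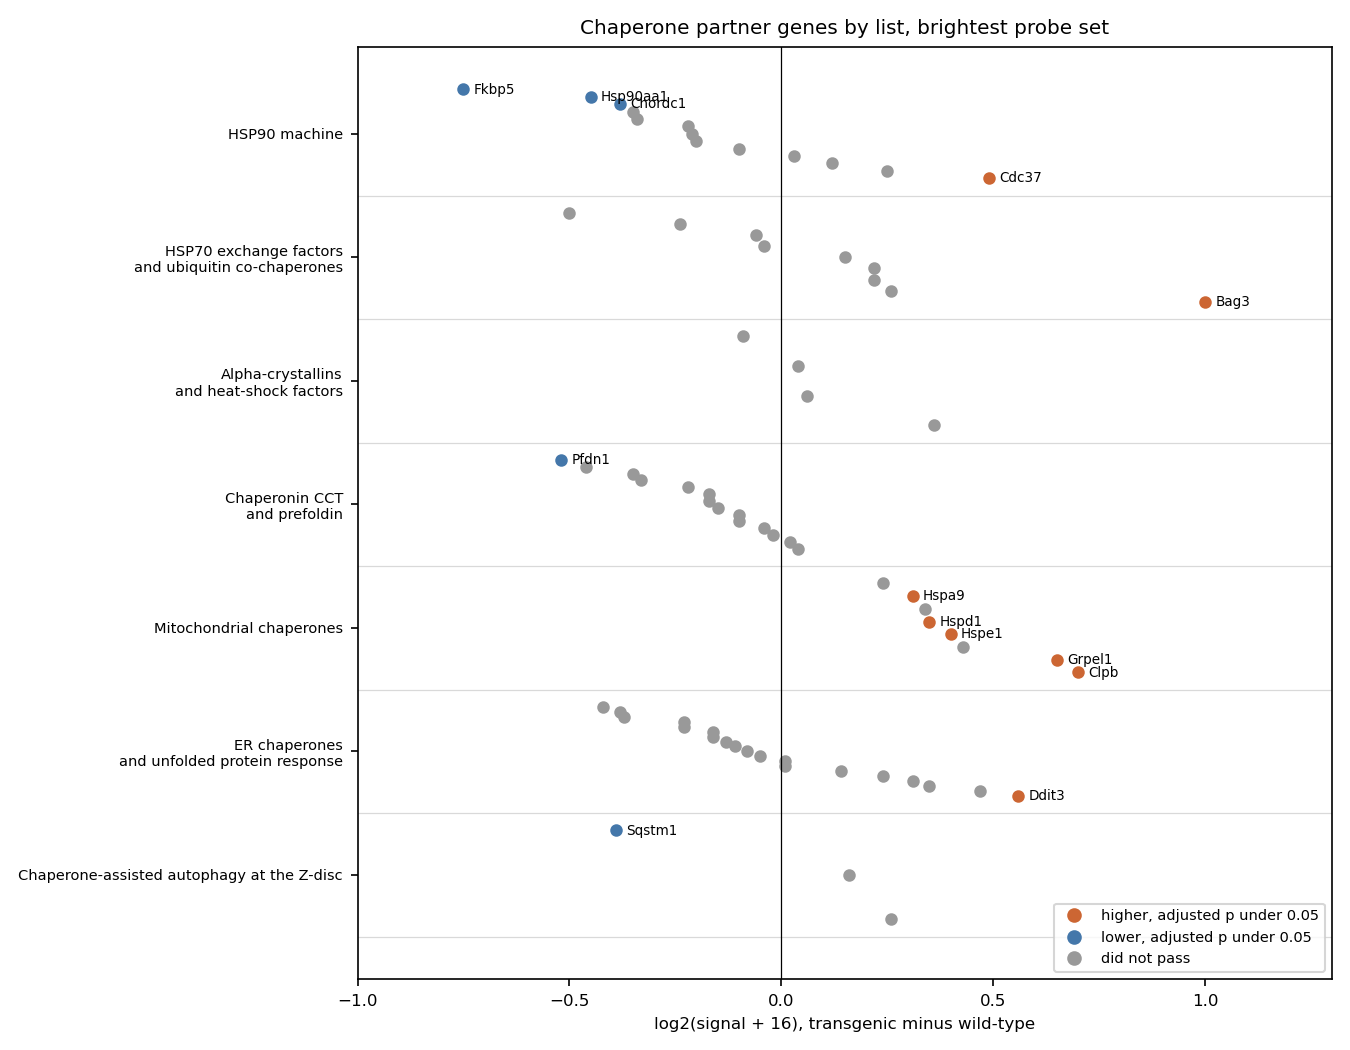
Log2 difference (transgenic minus wild-type, on log2(signal + 16)) of the brightest probe set of each of the 70 tested partner genes, by list; vertical position within a list only separates the points, and coloured, labelled points passed at a limma adjusted p under 0.05. Bag3 lies farthest to the right and Fkbp5 farthest to the left at -0.75, and all 8 mitochondrial chaperones lie right of 0.

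The Z-disc list held 1 call among 3 genes: Sqstm1, the autophagy receptor p62, fell from 4914, 5153 and 4729 to 3635, 3935 and 3700.0 (log2 difference -0.39, SE 0.09, limma adjusted p = 0.0175). It did not pass without WT1, WT2, TG1 or TG3 (adjusted p = 0.0608, 0.0873, 0.0788 and 0.0535). Flnc, filamin C, a client of this pathway, was not separated (0.16, SE 0.21, limma adjusted p = 0.681). Cryab, the αB-crystallin and chromosomal neighbour of Hspb2, gave 11963, 11450.4 and 8119 against 13066, 12795 and 14091 at its brightest probe set and did not pass (0.36, SE 0.14, with a limma adjusted p of 0.123). Its other probe set did, from 5922, 6253 and 4188 to 8252, 9747 and 8471 (0.71, limma adjusted p = 0.0104). The heat-shock factors Hsf2 and Hsf4 gave low signals that overlapped, at 0.04 and 0.06, with limma adjusted p of 0.921 and 0.909.

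The HSP90 list, with a median of -0.21 over 13 tested genes, held 1 that rose, 3 that fell and 9 without a call. Among all genes 7.65% were higher and 5.75% lower. Of the 16 genes in the list, Hsp90ab1, Ptges3 and Ppid had no probe set that names 1 gene only and are missing here. Hsp90aa1, the inducible HSP90, fell from 1504, 1286 and 1499 to 1050.1, 905 and 1191 (-0.45, SE 0.12, limma adjusted p = 0.0436). The call was lost without any 1 array except TG3, with adjusted p from 0.0585 (without WT2) to 0.152 (without WT1). Of the dimmer Hsp90aa1 probe sets 1 passed at -0.49 (limma adjusted p = 0.0294) and 1 did not, at -0.17 (limma adjusted p = 0.443). Fkbp5, an HSP90 cochaperone induced by glucocorticoids, fell from 679.7, 1033 and 833 to 499.7, 531 and 448 (-0.75, SE 0.15, limma adjusted p = 0.0105). It did not pass without the intensity trend (limma adjusted p = 0.0587). A dimmer Fkbp5 probe set overlapped and did not pass (-0.44, SE 0.20, limma adjusted p = 0.199). Chordc1, another cochaperone of HSP90, fell by 0.38 (SE 0.10, limma adjusted p = 0.0414), and Cdc37, which loads kinases on HSP90, rose by 0.49 (SE 0.12, limma adjusted p = 0.0250). Leaving out WT1, WT2, TG1 or TG2 took the adjusted p of Chordc1 to 0.164, 0.107, 0.0797 and 0.0808, and leaving out TG3 to 0.113. Cdc37 was at 0.0829, 0.0936, 0.0635 and 0.0699 without the first 4 of these.

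Of the 14 CCT and prefoldin genes 13 gave no call at the brightest probe set and Pfdn1 fell (-0.52, SE 0.13, limma adjusted p = 0.0239). The adjusted p of Pfdn1 was 0.0800 without WT1, 0.0990 without WT2 and 0.0673 without TG2. Cct4, a subunit of the chaperonin CCT, was lower at a dimmer probe set, from 799, 812 and 868 to 559.6, 598 and 613 (-0.48, SE 0.11, limma adjusted p = 0.0161), while its other probe sets lay between -0.16 and 0.21. The list of mitochondrial chaperones had the most calls, 5 of 8 higher against 7.65% of all genes, with a median of 0.38. Clpb, a disaggregase, rose by 0.70 (SE 0.12, limma adjusted p = 0.00486), Grpel1, the exchange factor of mitochondrial HSP70, by 0.65 (SE 0.10, limma adjusted p = 0.00234) and Hspe1, the chaperonin cap, by 0.40 (SE 0.11, limma adjusted p = 0.0434). The adjusted p of Hspe1 lay from 0.0505 (without TG3) to 0.154 (without WT2) in the fits without 1 array, except without WT3, and its second probe set was at -0.02. With the arrays scaled to a common median 3 of the 5 were no longer called: Hspe1 (adjusted p = 0.209) and, named after their values were seen, Hspd1 (0.334) and Hspa9 (0.367). Hspd1, the chaperonin itself, was also lost without any 1 array (adjusted p from 0.0586 without TG2 to 0.149 without WT1), as was the brightest Hspa9 probe set (from 0.0606 without WT3 to 0.138 without WT2). A dimmer Hspa9 probe set passed at 0.73 (SE 0.15, limma adjusted p = 0.0109). In the list for the endoplasmic reticulum 18 of 19 gave no call at the brightest probe set and the stress factor Ddit3 rose (0.56, SE 0.16, limma adjusted p = 0.0471). Atf4, a transcription factor of the stress response, lay at 0.01 at its brightest probe set and was lower at the other, from 1027, 889.8 and 976 to 455, 552 and 704 (-0.76, SE 0.15, limma adjusted p = 0.00943). With a common median for each array the adjusted p of Ddit3 was 0.162, and that of Cdc37 0.104. Ddit3 had adjusted p from 0.0582 (without WT2) to 0.167 (without WT1) in fits without 1 array, except without WT3. Clpb, Grpel1 and Bag3 were the 3 of the 13 partner calls that passed under all 16 settings.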

How the data were processed

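The authors deposited 1 column of signal intensity per animal, on a linear scale, made with MAS5 per the submitters' processing notes. The MAS5 version is not given in the sources used here. A trimmed mean of 200.0 was found on every array.

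Signals were taken as log2(signal + 16), which understates changes of dim probe sets. Apart from 64 control probe sets, the 45037 on the array were tested where the mean signal over 6 arrays exceeded the 40th percentile of 37.8. The test of genotype used limma 3.58.1 under R 4.3.3 (lmFit, eBayes with an intensity trend, two-sided, no block), with Benjamini-Hochberg adjustment over 26995 probe sets at a threshold of 0.05. In the platform annotation 34945 probe sets name 1 gene, 932 several and 9160 none. Of those with several, 3 name Dnajc19 together with a pseudogene and were not used. All 67 member genes matched RefSeq by Entrez identifier. A gene is represented by its brightest tested probe set. The members and lists were chosen with earlier results of these data known. Values on each array are given for genes with a call and for a set list of well-known members, and from each partner list up to the 3 largest rises and 3 largest falls among the calls are named. Hspa1l, Hspa2, Hspa4, Hspa4l, Hspa12b, Hspb11, Dnajb9, Dnajb11, Dnajc15, Dnajc30, Stub1, St13, Flnc, Cryab, Cct4, Atf4, Hsf2 and Hsf4 were added to those named after their values were seen, as were the places in the cell. The test was tried on simulated data before use. Alternatives changed the filter, the constant, the scaling of arrays, the variance model, the weights, the block, the choice of probe set, or left out 1 array. Plots were drawn with matplotlib 3.10.9.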

Additional observations from a re-analysis of the deposited data

How the results depend on the processing

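With 3 arrays per genotype, small differences are at the limit of the test. Calls for Hspb7, Hspb8, Hsph1 and the dimmer Dnajc28 probe set, 8 in all, kept their direction and side of the threshold under all 16 alternatives. The other 10 member calls kept their direction and were lost under at least 1, and the cause was not tested. Scaling to a common median gave 5 member probe sets higher and 16 lower (2 genes higher, 11 lower) and 3 partner genes higher and 11 lower. Without the intensity trend the counts were 4 and 5 probe sets, 1 and 3 member genes and 3 and 0 partner genes with limma, where 11 and 9 partner genes had an unadjusted p under 0.05. Without the filter 4 partner genes were higher, with array weights 8 were lower, and with the median probe set for each gene 3 member genes were higher. Leaving out 1 array at a time gave 5 to 10 member probe sets higher and 5 to 12 lower, 2 to 5 member genes higher and 3 to 6 lower, and 3 to 7 partner genes higher and 1 to 7 lower. Shares of all probe sets and genes under these alternatives, and at an unadjusted p, are not given here, so the counts have no background.

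The titles number the animals 1 to 3 in both genotypes. Same-numbered arrays did not deviate together (correlations of 0.07, -0.08 and -0.02 for numbers 1, 2 and 3), so the numbers were not taken to pair the animals. With the replicate number as a block, 10 member probe sets were higher and 7 lower, 6 and 5 member genes, and 4 and 4 partner genes. These counts too have no share of all features beside them.

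Some uncalled differences changed sign. Scaling to a common median gave -0.02 for Dnajb9, -0.14 for Dnajc5 and -0.08 for Hspb1, and array weights gave -0.02 for Dnajc5. Leaving out 1 array at a time gave -0.08 to 0.06 for Dnajc5 (lowest without WT3), -0.02 to 0.15 for Hspb1 (lowest without WT3), -0.27 to 0.01 for Hspb2 (highest without WT1), -0.04 to 0.32 for Hspa4l (lowest without TG2) and -0.31 to 0.15 for Hspa1a (highest without TG1).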
